A study of Mus musculus with 12 samples.

Results

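Mouse cortical astrocytes were compared with the cells they had given rise to at day 6 of reprogramming. The samples were chosen by their titles: the 3 arrays titled as intermediate-state cells were set against the 3 arrays titled as astrocytes, 6 of the 12 arrays of the study. Both groups carry the Sox1-GFP reporter, in which GFP replaces 1 Sox1 allele (Sox1+/-), so neither group is wild type at this locus. The astrocytes are cultures of cortex from postnatal day 3, Sox1-GFP-negative, grown in DMEM/F12 medium and 10% serum. The day 6 cells come from such astrocytes infected with retroviruses for Oct4, Klf4, Sox2 and c-Myc (OKSM), kept in mouse embryonic stem cell medium with 15% serum and 1000 U/ml of leukemia inhibitory factor (LIF), and they are the Sox1-GFP-positive cells of that day. The other 6 arrays are neural stem cells and induced pluripotent stem cells (iPSCs). The factors, the medium, the elapsed days and the choice by Sox1-GFP all differ between the groups together, so their parts cannot be told apart. The labels do not say whether the replicates are separate animals or cultures, and the p-values therefore measure the spread between these samples.

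Astrocytes in culture take up glutamate, store glycogen, burn fatty acids, secrete growth factors and matrix, and carry many receptors for extracellular signals. Cells that divide fast rely more on import of amino acids and on synthesis of nucleotides, and the lysosome, the acid compartment that breaks down protein and lipid, is controlled in part by factors that bind the E-box sequence CACGTG. When amino acids run short, the factor ATF4 binds composite elements whose core reads TGATGNAA and switches on amino acid transporters, asparagine synthetase and aminoacyl tRNA synthetases.

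Levels are log2 of the array intensity, and a difference is the day 6 mean minus the astrocyte mean on that scale, given with its standard error (SE) from limma. A gene was called when its Benjamini-Hochberg adjusted p from limma was under 0.05 and its difference was at least 1, which is a doubling or a halving. A gene counted as held near its level when the 95% confidence interval of its difference lay inside -0.5 to 0.5. Of 19938 genes, 1346 (6.75%) were called higher and 2014 (10.1%) lower in the day 6 cells, 16.9% in all, and 11063 (55.5%) were held near their level. Many of the held genes were dim: 7731 genes lay below the array median on all 6 arrays, and among the 12207 others 4021 were held (32.9%). The largest differences were more often downward, with 81 lower and 16 higher genes past 4 log2 units. The array medians lay between 6.61 and 6.71 on the log2 scale. Where 1 group of a gene lies under them, little signal stands over background there, so the difference is given as measured on this scale, without a fold. The 3 arrays of a group correlated with each other at r of 0.992 to 0.996 across genes, and the groups did not overlap for 3358 of the 3360 called genes, against 55.9% of all genes. The plot of difference against level shows where the genes described here lie.

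**Figure D1:**
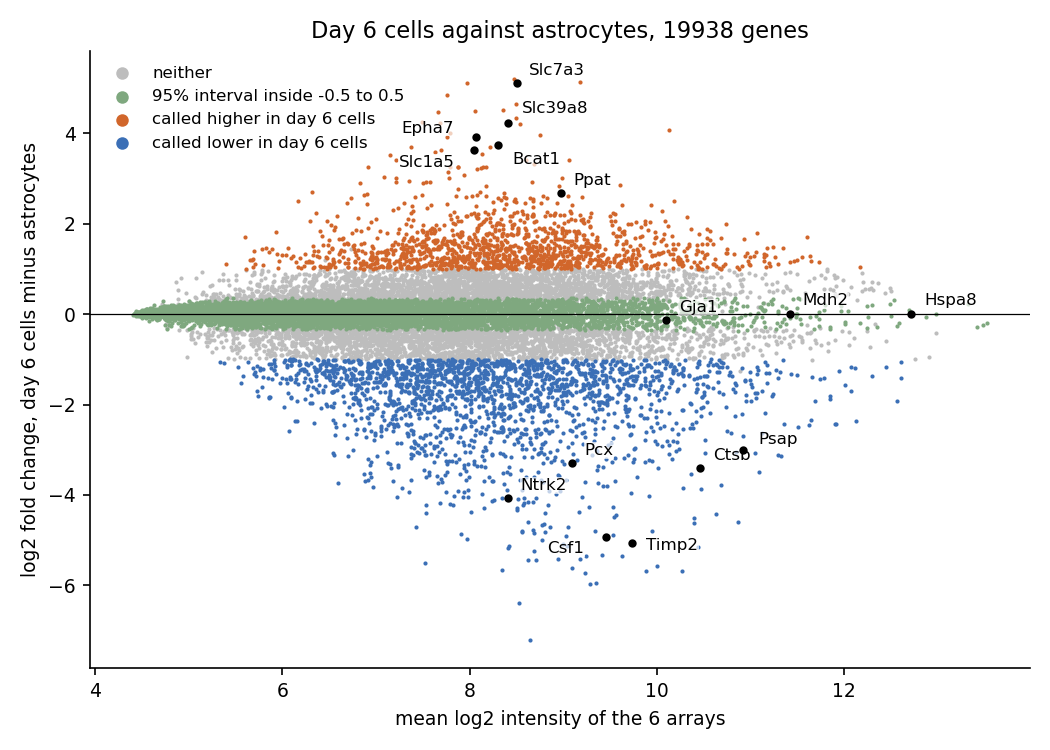
Log2 difference (day 6 minus astrocytes, y axis) against the mean log2 intensity of the 6 arrays (x axis), with 1 point for each of 19938 genes. The 1346 orange genes were called higher, the 2014 blue genes lower, and the 11063 green genes, many of them at the dim left end, had a 95% interval inside -0.5 to 0.5.

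The labels were set against marker genes of the cell types such a culture can hold. Of 16 astrocyte markers, 13 fell, and their summed intensity went from 33107 to 38453 on the astrocyte arrays and from 2671 to 2839 on the day 6 arrays. Markers of fibroblasts and meningeal cells moved the same way: 8 of 14 fell and none rose, with sums of 18240 to 19491 on the astrocyte arrays and 2976 to 3411 on the day 6 arrays. Osteoglycin (Ogn), a matrix proteoglycan on that list, read 12.37, 12.12 and 12.25 in astrocytes and 4.85, 5.11 and 5.16 in day 6 cells. Oligodendrocyte lineage markers summed to 4078 to 5404 against 2208 to 2415, but of the 13 measured 3 fell, 1 rose and 8 were held. Their differences ran from -4.29 to 3.41, with a median of -0.01. Microglia and macrophage markers summed to 1600 to 2203 against 1398 to 1471, and 8 of the 17 microglial genes, Aif1 and Itgam among them, were below the array median on all 6 arrays. Neuron markers summed to 6976 to 8362 against 9022 to 9492, but Nefl alone carried this rise. Without Nefl, an alternative chosen after seeing the data, the other 14 summed to 6894 to 8258 against 5670.0 to 5839, and 1 of the 15 rose, 2 fell and 9 were below the array median throughout. Ependymal and choroid plexus markers summed to 1104 to 1573 against 688 to 776, with 2 of 10 lower. Endothelial and pericyte markers summed to 910 to 1014 against 974 to 1011, with 1 of 13 higher and 10 held. Pluripotent cell markers rose in 5 of 12 cases and fell in none, with sums of 779 to 970 against 2484 to 2525, and Pou5f1, 1 of the 5, is the Oct4 gene that the viruses deliver. In RNA from many cells, fewer cells of a type and less RNA of its genes per cell cannot be told apart. The part that a change in cell makeup has in the results given here was not tested.

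**Figure D2:**
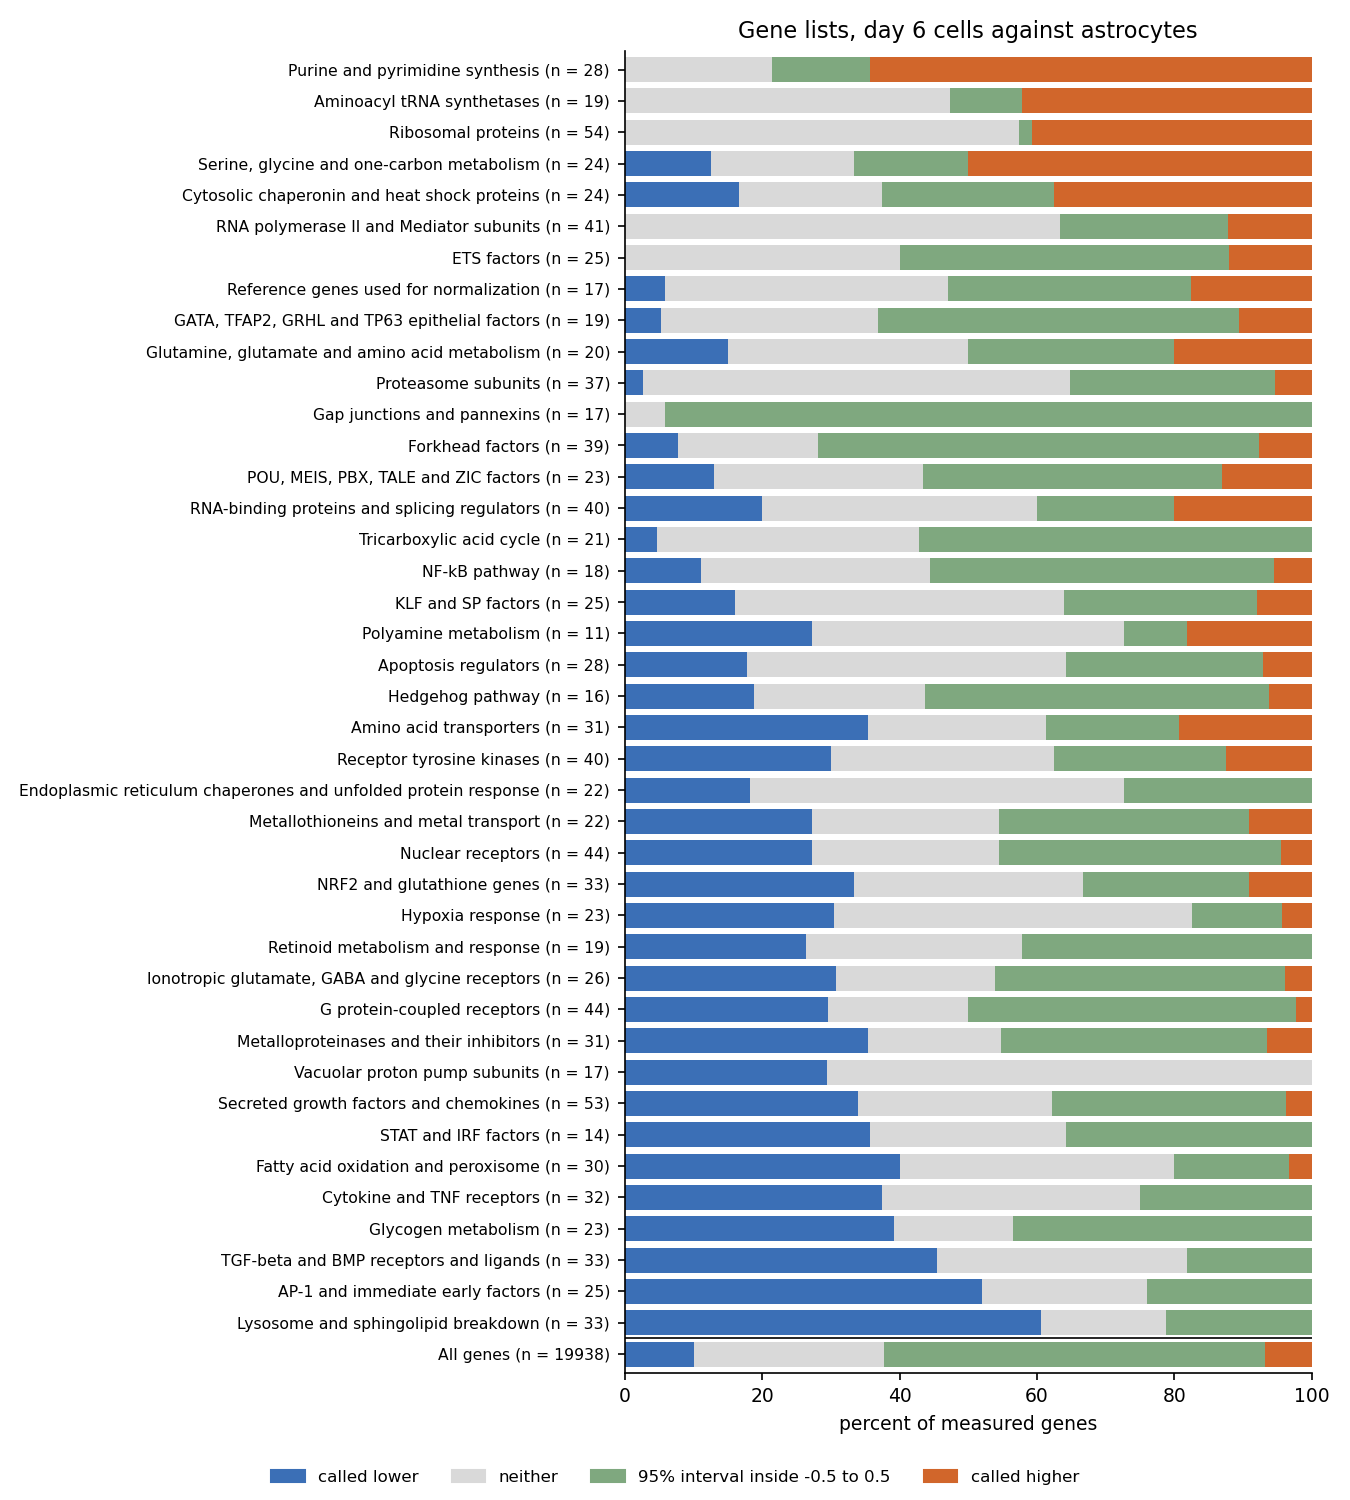
Share of the measured genes of 41 pathway and gene family lists (y axis, with the number measured) that were called lower (blue), called higher (orange), held with a 95% interval inside -0.5 to 0.5 (green) or neither (grey), in percent (x axis). Nucleotide synthesis, with 18 of 28 genes called higher, stands at the top, and the lysosome, with 20 of 33 called lower, at the bottom, above the bar for all 19938 genes.

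Amino acid uptake changed its carriers. Of 31 measured transporters, 6 rose and 11 fell, and their median difference was -0.28 beside 0.04 for all genes. The carrier of arginine and lysine Slc7a3 read 5.91, 5.98 and 5.95 on the 3 astrocyte arrays and 11.13, 11.05 and 10.99 on the 3 day 6 arrays. It was near the low end of the scale in astrocytes and was high on every day 6 array (5.11 ± 0.09, adjusted p = 7.56e-12 by limma). The glutamine carrier Slc1a5 went from 6.30, 6.23 and 6.15 to 9.95, 9.81 and 9.83, a difference of 3.63 ± 0.12. The glutamine carrier of astrocytes Slc38a3 went the other way, from 11.21, 11.20 and 11.25 to 6.40, 6.48 and 6.64 (-4.72 ± 0.08, adjusted p = 7.56e-12 by limma). So did the glial glutamate carriers Slc1a3 (-5.34 ± 0.11) and Slc1a2 (-3.35 ± 0.17), which are also on the astrocyte marker list. The cystine carrier Slc7a11 rose by 1.81 ± 0.15, from 6.60, 6.43 and 6.77 to 8.28, 8.15 and 8.80, and its lowest day 6 array was above its highest astrocyte array.

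Enzymes that work on amino acids split likewise, with 4 of 20 higher, 3 lower and a median difference of 0.04. Bcat1, the cytosolic transaminase of the branched-chain amino acids, read 6.34, 6.48 and 6.48 in astrocytes and 10.28, 10.07 and 10.19 in day 6 cells (3.75 ± 0.07). Its mitochondrial partner Bcat2 rose by 1.75. Asparagine synthetase (Asns) went from 8.75, 9.17 and 8.99 to 10.65, 10.65 and 10.70, a rise of 1.70 ± 0.10, and Aldh18a1, which starts proline synthesis from glutamate, rose by 1.40. In contrast Abat, which degrades the transmitter GABA, read 10.62, 10.66 and 10.90 in astrocytes and 7.05, 7.23 and 7.23 in day 6 cells (-3.56 ± 0.09). Glutamine synthetase (Glul), a mark of astrocyte function, fell by 1.77 log2 units, and Oat, the ornithine transaminase, fell by 1.56. The groups did not overlap for any of these genes, and the aspartate transaminase Got2 (0.22 ± 0.11) was held near its level.

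**Figure D3:**
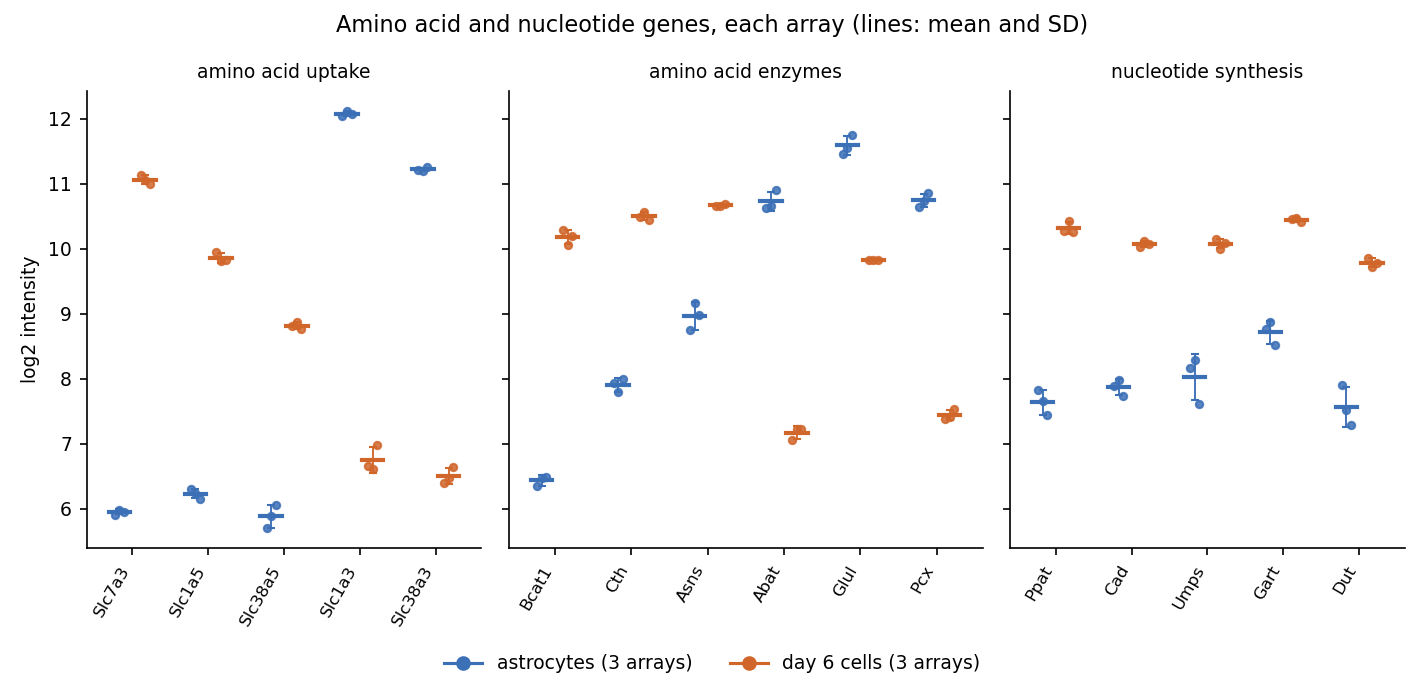
Log2 intensity (y axis) of amino acid and nucleotide genes on each of the 3 astrocyte (blue) and 3 day 6 arrays (orange), with the mean and SD. Slc38a3, Slc1a3, Abat, Glul and Pcx are lower on every day 6 array, and the other genes drawn are higher on every day 6 array.

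Promoters are shown for a few members that were called and whose window holds a sequence known from the regulation of such genes. The sequences are from RefSeq on GRCm38.p6, 250 bases before to 50 after the first listed start of each gene, 5′ to 3′ on the gene's strand, and 15563 of the 19938 genes had one. Capitals mark the E-box CACGTG and the amino acid response element core TGATGNAA, searched on both strands, so that TTGCATCA is a match on the opposite strand. The core stood in 3.17% of all promoters, in 2 of 15 of the amino acid enzyme list (13.3%), in 3 of 23 of the transporters (13.0%) and in 4 of 12 of the tRNA synthetases (33.3%), while 1.93% of all genes called higher held it. Among genes called lower 2.53% held it. Held genes that were not dim had it in 1.78%, and genes dim on all 6 arrays in 5.12%, so the share over all promoters is raised by dim genes. Other holders were the transporters Slc1a4 and Slc7a7, whose differences are not given here, and the enzyme Got1, which was not called. Outside these lists the core stood in the lysosomal genes Smpd1 (-2.87) and Ctsl (-1.80), both called lower. It also stood in Prps1 (1.30), called higher, and Atp6v0d1 (-0.99), not called. The matches are letters in a window and were not tested as sites. Asns (chr6:7693160-7693459, minus strand) and Slc7a11 (chr3:50443564-50443863, minus strand), both higher in day 6 cells, hold 1 and 2 such cores, which begin at -23 from the start of Asns and at -66 and -47 from that of Slc7a11.
Asns: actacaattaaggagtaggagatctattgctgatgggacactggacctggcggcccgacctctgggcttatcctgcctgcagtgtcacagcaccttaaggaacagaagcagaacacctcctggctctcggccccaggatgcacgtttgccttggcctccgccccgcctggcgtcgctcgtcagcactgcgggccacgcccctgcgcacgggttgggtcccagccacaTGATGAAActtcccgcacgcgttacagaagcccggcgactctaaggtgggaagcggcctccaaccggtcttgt
Slc7a11: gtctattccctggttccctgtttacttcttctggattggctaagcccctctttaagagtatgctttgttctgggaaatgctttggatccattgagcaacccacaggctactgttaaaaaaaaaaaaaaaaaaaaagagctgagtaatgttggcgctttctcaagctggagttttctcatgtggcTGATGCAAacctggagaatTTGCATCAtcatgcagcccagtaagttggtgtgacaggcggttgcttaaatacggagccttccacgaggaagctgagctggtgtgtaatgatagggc

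Aminoacyl tRNA synthetases charge tRNAs with their amino acids. Of 19 measured, 8 were higher, none was lower and 2 were held, with a median difference of 0.90 (5 higher under cyclic loess normalization). Gars, which charges glycine, read 9.63, 9.77 and 9.60 in astrocytes and 11.15, 11.19 and 11.24 in day 6 cells (1.53 ± 0.06). Iars, which charges isoleucine, went from 10.06, 10.25 and 9.87 to 11.42, 11.41 and 11.42 (1.36 ± 0.09), and Tars, which charges threonine, from 8.69, 8.60 and 8.46 to 9.68, 9.75 and 9.59 (1.09 ± 0.08). All day 6 arrays were above all astrocyte arrays for these 3 genes, whereas Wars, for tryptophan, differed by only 0.26 ± 0.09. Tars was near the threshold, and its call was not followed under the alternatives. The promoters of Gars, Iars, Tars and Yars hold the core. Those of Iars (chr13:49681880-49682179, plus strand) and Tars (chr15:11399609-11399908, minus strand) hold an E-box as well and are shown for that reason, with the core on the strand opposite to the gene in both.
Iars: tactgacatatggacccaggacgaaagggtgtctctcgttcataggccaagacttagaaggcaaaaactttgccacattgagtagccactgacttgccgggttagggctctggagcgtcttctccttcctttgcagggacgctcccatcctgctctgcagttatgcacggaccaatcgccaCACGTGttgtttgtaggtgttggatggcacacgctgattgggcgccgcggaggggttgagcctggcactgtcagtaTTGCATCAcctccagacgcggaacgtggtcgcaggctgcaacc
Tars: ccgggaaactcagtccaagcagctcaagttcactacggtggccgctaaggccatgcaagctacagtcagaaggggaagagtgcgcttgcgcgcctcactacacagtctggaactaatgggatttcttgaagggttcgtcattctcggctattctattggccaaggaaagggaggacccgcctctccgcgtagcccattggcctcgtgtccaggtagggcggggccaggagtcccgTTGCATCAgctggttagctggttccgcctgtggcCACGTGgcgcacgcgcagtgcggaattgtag

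Nucleotide synthesis had the largest share of higher genes among the 41 lists. Of 28 measured enzymes 18 rose, none fell, and the median difference was 1.15. Ppat, the first committed step of purine synthesis, read 7.82, 7.66 and 7.44 in astrocytes and 10.27, 10.43 and 10.25 in day 6 cells (2.68 ± 0.10, 6.42-fold, adjusted p = 2.04e-09 by limma). Cad, which starts pyrimidine synthesis, went from 7.88, 7.99 and 7.74 to 10.02, 10.12 and 10.08 (2.20 ± 0.08). Umps, which ends it, read 8.17, 8.29 and 7.62 in astrocytes, with the third array the lowest, and 10.14, 10.00 and 10.10 in day 6 cells (2.06 ± 0.14). The purine enzyme Gart rose by 1.73 ± 0.10 and Dut, which keeps uracil out of DNA, by 2.22 ± 0.12. Ctps (0.14 ± 0.10), Adss (0.02 ± 0.07) and Prps2 (0.11 ± 0.11) were held, so the rise did not extend to every gene of the list. Prps1, the relative of Prps2, was called higher (1.30). Atic, which carries out the last steps of purine synthesis, rose by 1.44 ± 0.08. Its promoter (chr1:71556906-71557205, plus strand) is printed because it is an E-box promoter of a list that rose, with the match at -7 from the start, and 4 of the 26 promoters of this list hold one (15.4%, beside 8.40% of all promoters and 12.6% of those of genes called higher).
Atic: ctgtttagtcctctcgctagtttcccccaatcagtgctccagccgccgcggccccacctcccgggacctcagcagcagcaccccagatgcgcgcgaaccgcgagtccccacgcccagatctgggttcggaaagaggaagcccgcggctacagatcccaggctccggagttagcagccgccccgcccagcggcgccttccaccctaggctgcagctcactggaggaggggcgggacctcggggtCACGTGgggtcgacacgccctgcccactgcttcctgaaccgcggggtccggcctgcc

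One-carbon metabolism supplies units for purines and thymidylate, and 12 of its 24 measured genes rose, with a median of 0.85. Cystathionine gamma-lyase (Cth), which makes cysteine, read 7.93, 7.79 and 7.99 in astrocytes and 10.49, 10.56 and 10.44 in day 6 cells (2.60 ± 0.12). Shmt1, which draws one-carbon units from serine, rose by 2.23 ± 0.06, and thymidylate synthase (Tyms) by 2.16 ± 0.16. The 3 genes that fell were Aldh1l1, which disposes of folate-bound carbon and marks astrocytes (-4.04 ± 0.10), and 2 genes of the glycine cleavage system, Amt (-1.76 ± 0.14) and Gldc (-1.09 ± 0.08). Gldc was near the threshold, and its call was not followed under the alternatives. Psat1 (0.15 ± 0.09), of serine synthesis, was held. In polyamine metabolism 2 of 11 genes rose and 3 fell: spermidine synthase (Srm) went from 9.19, 9.22 and 9.01 to 11.10, 11.13 and 11.07 (1.96 ± 0.08), while ornithine decarboxylase (Odc1), the entry step, was held at 0.30 ± 0.07. The other calls there were Eif5a (1.27), Oaz2 (-1.73), Sat2 (-1.42) and Azin2 (-1.02), and under cyclic loess Eif5a and Azin2 were not called. Azin2 also lost its call with median centring, with 16 added, and without astrocyte replicate 2 (-0.96) or day 6 replicate 1 (-0.98).

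Ribosomal proteins had more genes higher than lower, and chaperones went both ways. Of 54 measured ribosomal protein genes 22 were called higher and none lower, with a median of 0.91, and 13 were called under cyclic loess. These genes have many near-identical copies, so the single genes are uncertain: 3 probe sets carry Rps13 (1.70 ± 0.07), and Rpl21 (0.01 ± 0.06), with 9, was held. Of 24 chaperonins and heat shock proteins 9 rose, led by the mitochondrial chaperonin Hspd1 (10.59, 10.45 and 10.51 to 11.79, 11.86 and 11.80, 1.30 ± 0.06), and 4 fell, while under cyclic loess 1 rose and 4 fell. The 4 that fell include the small heat shock proteins Cryab (-2.60 ± 0.13), abundant in astrocytes, and Hspb8 (-2.19 ± 0.09). Of 41 subunits of RNA polymerase II and Mediator, 5 rose, Cdk8 the most (1.31 ± 0.08), none fell and the median was 0.58. Of these, Polr2h lost its call when the probe sets of a gene were averaged, under cyclic loess, with 16 added and without astrocyte replicate 3 (0.97), and 3 of the list rose with 16 added before log2. Proteasome subunits moved less, with 2 of 37 higher, Psma1 (1.07) and Psma7 (1.02), a median of 0.48, and neither called under cyclic loess. Psma1 also lost its call without astrocyte replicate 2 (0.99), and Psma7 without astrocyte replicate 3 (0.93) or day 6 replicate 1 (0.99). The 1 lower subunit was Psmb8 (-1.44 ± 0.12), the immunoproteasome variant of a catalytic subunit.

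Lysosomal genes had the largest share of lower genes among the 41 lists. Of 33 measured genes 20 fell, none rose, and the median difference was -1.42. Cathepsin B (Ctsb), a protease, read 12.15, 12.02 and 12.35 in astrocytes and 8.83, 8.64 and 8.80 in day 6 cells, 10.7-fold lower (-3.41 ± 0.12, adjusted p = 9.12e-10 by limma). Prosaposin (Psap), the precursor of the saposins that help degrade sphingolipids, went from 12.35, 12.50 and 12.45 to 9.45, 9.36 and 9.46 (-3.01 ± 0.06), and every day 6 array was below every astrocyte array for both genes. The sphingolipid enzymes Smpd1 (-2.87 ± 0.06), Galc (-2.65 ± 0.10) and Hexa (-2.62 ± 0.07) fell as well. Within the same list Scarb2, which delivers an enzyme to the lysosome (-0.17 ± 0.12), Ctsz, another cathepsin (-0.21 ± 0.07), and Glb1, the beta-galactosidase (-0.36 ± 0.06), were held. Of 17 microglia and macrophage markers 2 fell, the lysozyme Lyz2 (-2.54 ± 0.29) and cathepsin S (Ctss, -1.23, not called without astrocyte replicate 1). Laptm5 was the 1 that rose (1.54 ± 0.21). In all 17.6% of these markers were called, close to the 16.9% of all genes. Their sums are given above, and their part here was not tested. The proton pump that acidifies the lysosome had 5 of 17 subunits lower, none higher and none held, with a median of -0.80. Its accessory subunit Atp6ap1 read 10.89, 11.05 and 10.97 in astrocytes and 9.31, 9.09 and 9.30 in day 6 cells (-1.73 ± 0.07). Under cyclic loess 8 of the 17 fell. Of the 5, Atp6v0a2 lost its call when the probe sets of a gene were averaged (-0.63). Atp6v1e1 (-1.06) lost its call with median centring (-0.96) and without day 6 replicate 2 (-0.96).

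The E-box stood in 7 of the 28 lysosomal promoters (25.0%) and in 4 of the 12 of proton pump subunits (33.3%), beside 8.40% of all promoters and 9.41% of those of genes called lower. Of the 7 lysosomal genes with an E-box, 4 were called lower (Lamp1, Ctsd, Ctsl and Arsa) and 3 were not (Gla, Glb1 and Mcoln1), and none of the 4 pump genes was called. Over the whole lysosomal list 20 of 33 genes were called lower (60.6%), so the 4 of 7 with an E-box are no larger a share. The lysosomal membrane protein Lamp1 went from 12.18, 12.01 and 12.30 to 10.84, 10.85 and 10.78 (-1.34 ± 0.08), and cathepsin D (Ctsd), an aspartic protease, from 12.66, 12.65 and 12.68 to 10.82, 10.64 and 10.72 (-1.93 ± 0.10). Their promoters hold the most E-boxes among the lower genes of the list and are shown beside Atic, whose level went the other way. Gla (0.10) and Mcoln1 (-0.46), which were not called, hold 2 each, as many as Ctsd. In Lamp1 (chr8:13158911-13159210, plus strand) the 4 matches begin at -61, -45, -28 and -15 from the start, and in Ctsd (chr7:142387778-142388077, minus strand) the 2 begin at -245 and -98.
Lamp1: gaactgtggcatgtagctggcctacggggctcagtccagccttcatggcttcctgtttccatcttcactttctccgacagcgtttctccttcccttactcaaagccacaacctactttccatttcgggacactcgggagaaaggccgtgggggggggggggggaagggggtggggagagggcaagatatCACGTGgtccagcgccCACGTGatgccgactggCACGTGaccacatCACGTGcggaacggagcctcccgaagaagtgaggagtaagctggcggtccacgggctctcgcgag
Ctsd: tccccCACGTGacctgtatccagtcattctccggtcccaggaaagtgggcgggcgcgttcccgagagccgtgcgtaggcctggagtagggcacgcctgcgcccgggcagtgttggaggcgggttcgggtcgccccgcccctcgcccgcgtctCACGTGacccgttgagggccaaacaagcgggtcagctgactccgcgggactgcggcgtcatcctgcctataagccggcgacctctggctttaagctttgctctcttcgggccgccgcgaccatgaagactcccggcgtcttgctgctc

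Genes that burn fat or turn over glycogen were more often lower than higher. Of 30 genes of fatty acid oxidation and the peroxisome 12 fell and 1 rose (Acsl4, 1.28 ± 0.10), with a median of -0.77. The coactivator of oxidative metabolism Ppargc1a read 9.66, 9.83 and 9.45 in astrocytes and 5.30, 5.56 and 5.42 in day 6 cells (-4.22 ± 0.14, adjusted p = 5.79e-10 by limma). Cpt1a, the gate for fatty acids into mitochondria, went from 10.19, 10.07 and 10.42 to 7.53, 7.19 and 7.44 (-2.84 ± 0.11), and the peroxisomal enzyme Phyh fell by 2.62 log2 units. Etfb (-0.04 ± 0.06), which passes on the electrons, and the thiolase Acaa2 (-0.23 ± 0.06) were held. Of 23 glycogen genes 9 fell, none rose, 10 were held, and the median was -0.64. Ugp2, which makes the glucose donor for glycogen, read 10.61, 10.51 and 10.72 in astrocytes and 7.43, 7.52 and 7.13 in day 6 cells (-3.26 ± 0.13). The brain glycogen phosphorylase Pygb went from 11.53, 11.53 and 11.72 to 9.12, 9.24 and 9.12 (-2.43 ± 0.07), and Ppp1r3c, which targets a phosphatase to glycogen, fell by 2.79 log2 units, while Gys1, the muscle-type glycogen synthase that brain also uses, was held (-0.23 ± 0.09). The tricarboxylic acid cycle differed from both lists: 12 of 21 genes were held, and the only call was pyruvate carboxylase (Pcx), which refills the cycle and is astrocytic in brain. Pcx read 10.65, 10.74 and 10.85 in astrocytes and 7.38, 7.41 and 7.54 in day 6 cells (-3.30 ± 0.07), whereas Mdh2 read 11.42, 11.39 and 11.43 and 11.44, 11.38 and 11.46 with overlapping arrays (0.01 ± 0.08). With cyclic loess 3 of the 21 fell.

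**Figure D4:**
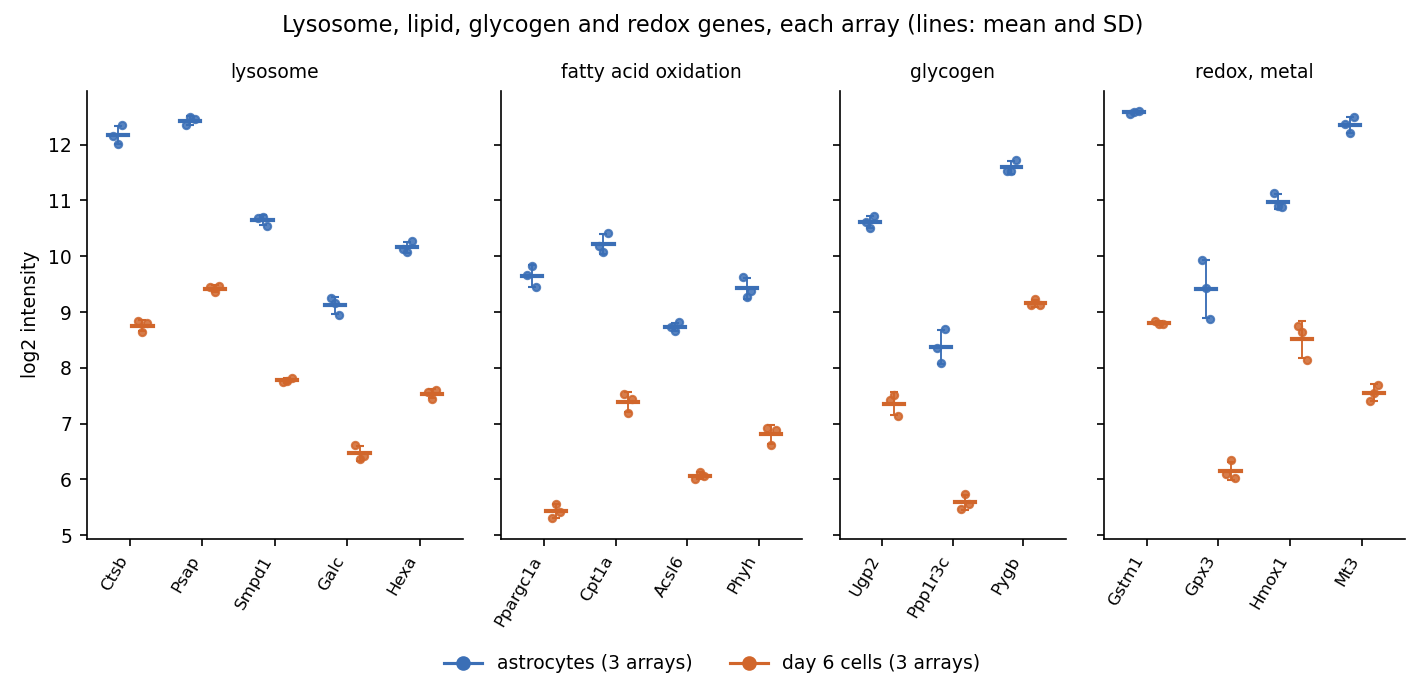
Log2 intensity (y axis) of genes of the lysosome, fatty acid oxidation, glycogen, and redox or metal handling on each of the 3 astrocyte (blue) and 3 day 6 arrays (orange), with the mean and SD. For all 16 genes every day 6 array lies below every astrocyte array, and Gpx3 has the widest spread among the astrocyte arrays.

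Antioxidant genes split. Of 33 genes of the NRF2 and glutathione list 3 rose, 11 fell and 8 were held. Gstm1, a glutathione transferase, read 12.56, 12.59 and 12.60 in astrocytes and 8.84, 8.79 and 8.78 in day 6 cells, 13.8-fold lower (-3.78 ± 0.09). Glutathione peroxidase 3 (Gpx3) varied among astrocytes, at 9.93, 9.44 and 8.88, and read 6.09, 6.34 and 6.03 in day 6 cells (-3.26 ± 0.22). Heme oxygenase 1 (Hmox1) fell by 2.47 log2 units, while thioredoxin (Txn1, 0.19 ± 0.06), peroxiredoxin 1 (Prdx1, -0.06 ± 0.09) and Sod1 (0.21 ± 0.07) were held. Metal handling genes went both ways, with 2 of 22 higher and 6 lower. The zinc and manganese importer Slc39a8 went from 6.15, 6.35 and 6.38 to 10.52, 10.48 and 10.57 (4.23 ± 0.10, adjusted p = 4.49e-11 by limma), and the transferrin receptor Tfrc, which brings in iron, from 7.74, 7.49 and 6.87 to 10.72, 10.84 and 10.75 (3.40 ± 0.17). On the other side metallothionein 3 (Mt3), of brain, went from 12.36, 12.20 and 12.49 to 7.40, 7.56 and 7.70 (-4.80 ± 0.25), and the ferroxidase Cp (-5.66 ± 0.09) and the zinc carrier Slc39a12 (-3.85 ± 0.16) fell.

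Of 23 genes of the hypoxia response 7 fell and 1 rose, the partner subunit Arnt (1.01 ± 0.07). Arnt was near the threshold, and its call was not followed under the alternatives. The oxygen-regulated factor Epas1 read 10.62, 10.81 and 10.48 in astrocytes and 8.65, 8.37 and 8.34 in day 6 cells (-2.18 ± 0.15), while its relative Hif1a was held (0.16 ± 0.08). The targets Ndrg1 (-2.64 ± 0.23) and P4ha1 (-2.51 ± 0.13) fell. Of 22 endoplasmic reticulum chaperones and unfolded protein response genes 4 were called, all lower (18.2%, close to the 16.9% of all genes), led by Dnajb9 (-1.99 ± 0.24), and Hsp90b1 (-0.34 ± 0.06), Pdia6 (-0.08 ± 0.08) and Hyou1 (0.29 ± 0.08) were held. Among 28 apoptosis regulators, 2 rose and 5 fell, with 8 held. The survival factors Bcl2 (-1.86 ± 0.10) and Bcl2l1 (-1.58 ± 0.08) and the inflammatory Casp12 (-2.58 ± 0.11) fell.

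Surface receptors were more often lower than higher. Of 40 receptor tyrosine kinases 12 fell and 5 rose, with a median of -0.45. Ntrk2, the BDNF receptor, read 10.44, 10.43 and 10.48 in astrocytes and 6.39, 6.42 and 6.31 in day 6 cells (-4.08 ± 0.08, adjusted p = 1.32e-11 by limma). Fgfr2, a fibroblast growth factor receptor, fell as far, from 10.35, 10.31 and 10.47 to 6.34, 6.17 and 6.44 (-4.06 ± 0.09), and the collagen receptor Ddr1 fell by 3.26 log2 units. The ephrin receptors parted: Epha4 (-2.98 ± 0.13) fell, whereas Epha7 went from 5.94, 6.20 and 6.18 to 10.00, 10.00 and 10.09 (3.92 ± 0.17). Erbb2 (-0.09 ± 0.08), Tyro3 (0.08 ± 0.05) and Kit (-0.12 ± 0.10) were held. Of 44 G protein-coupled receptors 13 fell, 1 rose (the R-spondin receptor Lgr6, 1.42 ± 0.08) and 21 were held, 17 of the 44 being dim throughout. The orphan receptor Gprc5b (-3.67 ± 0.06), the endothelin receptor Ednrb (-3.57 ± 0.12) and the lipid receptor S1pr3 (-3.08 ± 0.11) had no overlap between the groups.

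Of 32 cytokine and TNF receptors 12 fell and none rose, with a median of -0.52. The oncostatin M receptor Osmr read 11.26, 11.11 and 11.26 in astrocytes and 8.97, 8.57 and 8.86 in day 6 cells (-2.41 ± 0.18), and Il6st, the signalling subunit that it shares with the receptors for LIF and interleukin 6, fell by 1.73 log2 units. Il1rap (-1.98 ± 0.12) and Tnfrsf12a (-2.21 ± 0.17) fell as well, and Ifnar1 (-0.23 ± 0.08) was held. Of 26 ionotropic receptor subunits for glutamate, GABA and glycine, 8 fell and 1 rose, and 16 were dim throughout. The GABA receptor subunit Gabrb1 went from 9.03, 8.91 and 8.69 to 5.09, 5.04 and 5.03 (-3.82 ± 0.19) and the AMPA receptor subunit Gria2 from 8.86, 8.58 and 8.77 to 5.06, 5.06 and 4.98 (-3.70 ± 0.10). The exception was Gabra2, another GABA receptor subunit, at 6.21, 5.81 and 6.17 in astrocytes and 8.96, 8.55 and 8.07 in day 6 cells (2.47 ± 0.21).

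Secreted signals, too, were more often lower. Of 53 growth factors and chemokines 18 were lower and 2 higher, Fgf4 (1.09 ± 0.14) and Ccl7 (1.03 ± 0.21), and the median was -0.45. Ccl7 was near the threshold, and its call was not followed under the alternatives. Csf1, the macrophage growth factor, read 11.97, 12.02 and 11.76 in astrocytes and 7.09, 7.07 and 6.83 in day 6 cells, 30.3-fold lower (-4.92 ± 0.17, adjusted p = 9.61e-10 by limma). The EGF receptor ligand Hbegf went from 11.93, 11.75 and 11.69 to 7.70, 7.11 and 7.21 (-4.45 ± 0.13), and Pdgfd (-3.66 ± 0.16) and Angpt1 (-3.34 ± 0.13), ligands of the PDGF and Tie receptors, fell too. Of 33 genes for TGF-beta and BMP ligands, receptors and modulators 15 fell, none rose, and the median was -0.83. The BMP antagonist Chrdl1 (10.24, 10.32 and 10.33 to 5.99, 6.00 and 6.03, -4.29 ± 0.07), Tgfb3 (-3.90 ± 0.14) and Bmp4 (-3.39 ± 0.14) were the lowest by difference. The receptor Tgfbr1 (-0.05 ± 0.09) and the signal carriers Smad2 (0.02 ± 0.09) and Smad3 (-0.08 ± 0.13) were held. The fibroblast and meningeal markers given above, several of which are matrix genes, moved with these lists.

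Of 31 metalloproteinases and inhibitors 11 fell and 2 rose. Among the tissue inhibitors, which block these proteases, Timp2 went from 12.22, 12.35 and 12.25 to 7.39, 7.16 and 7.04 (-5.07 ± 0.23) and Timp3 from 11.99, 12.16 and 12.25 to 8.97, 8.25 and 8.57 (-3.54 ± 0.17). The protease Adamts5 fell by 3.40 log2 units, Adam23, which lacks protease activity, rose by 2.04 ± 0.08, and Adam17, the shedding protease, was held (-0.16 ± 0.08). In the Hedgehog pathway 3 of 16 genes fell, the co-receptors Gas1 (-2.95 ± 0.15) and Boc (-1.59 ± 0.07) and the receptor Ptch1 (-1.85 ± 0.13), and the ligand trap Hhip rose (1.40 ± 0.14), with Gli3 held (-0.32 ± 0.07). In retinoid metabolism 5 of 19 fell and none rose. Aldh1a1 (9.68, 9.28 and 9.62 to 6.64, 6.69 and 6.13, -3.04 ± 0.14) and Rdh10 (-2.85 ± 0.10), enzymes of the pathway to retinoic acid, fell. The receptor Rarb (-1.84 ± 0.09), itself a retinoic acid target, fell with them, and Rarg was held (0.24 ± 0.10).

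Gap junction genes had the largest share held among the 41 lists, 16 of 17, although 12 of the 17 were dim throughout, and none was called. The connexin that couples astrocytes, Gja1, was bright and read 10.16, 9.90 and 10.45 in astrocytes and 10.00, 10.05 and 10.06 in day 6 cells. The groups overlapped and its interval ran from -0.41 to 0.15 (-0.13 ± 0.13), which sets it apart from the 13 of 16 astrocyte markers that fell. Panx1 was called higher under 4 alternatives (median centring, 16 subtracted before log2, and leaving out astrocyte replicate 3 or day 6 replicate 3), so that 1 of the 17 was then called.

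Among transcription factors the AP-1 and immediate early list changed most, with 13 of 25 lower, none higher and a median of -1.10. Fos read 11.81, 12.04 and 11.87 in astrocytes and 9.67, 8.67 and 9.02 in day 6 cells (-2.78 ± 0.40), Jun 12.02, 12.02 and 12.01 and 10.26, 9.48 and 9.68 (-2.21 ± 0.17), and Fosb fell by 2.87 ± 0.30. The day 6 arrays spread by about 1 log2 unit for Fos, more than the astrocyte arrays, and none reached an astrocyte array. Of 44 nuclear receptors 12 fell, 2 rose and 18 were held. The orphan receptor Rorb (8.83, 8.84 and 8.90 to 6.23, 5.98 and 6.35, -2.67 ± 0.14), the neural factor Nr2e1 (-3.33 ± 0.10) and Nr2f1 (-2.19 ± 0.13) fell, while Nr0b1, a nuclear receptor partner active in pluripotent cells, read 5.55, 5.32 and 5.40 in astrocytes and 10.46, 10.52 and 10.61 in day 6 cells (5.11 ± 0.12) and Nr5a2, active in early embryos, rose by 1.79 ± 0.08, and Nr2c2 (-0.14 ± 0.08), Ppard (0.15 ± 0.06) and Esrra (0.02 ± 0.05) were held. Of 14 STAT and IRF factors 5 fell and none rose, Irf7 the most (8.56, 8.22 and 7.60 to 6.06, 6.10 and 6.16, -2.02 ± 0.18), and Irf2 stood at the fold threshold and lost its call under cyclic loess, with median centring, with 16 added, and without astrocyte replicate 1 (-0.95) or day 6 replicate 3 (-0.95).

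The ETS, Forkhead and GATA lists had 12%, 15.4% and 15.8% of their genes called, no more than the 16.9% of all genes. The KLF and SP list had 24%. Of 39 Forkhead factors 25 were held, 3 rose and 3 fell, a share called close to the 16.9% of all genes, and Foxd1 read 5.76, 5.70 and 6.16 in astrocytes and 10.96, 11.22 and 11.07 in day 6 cells (5.21 ± 0.11, adjusted p = 2.88e-11 by limma). Foxo4, a mediator of growth arrest, rose by 1.71 ± 0.07, and Foxc1 (-1.97 ± 0.15), which is also a meningeal marker, and Foxj1 (-1.90 ± 0.10), of ciliated cells, fell. Of 25 ETS factors 3 rose and none fell: the epithelial Ehf went from 5.42, 5.43 and 5.64 to 7.99, 7.87 and 7.17 (2.18 ± 0.18), Ets2 rose as well, and Etv6 (1.02) lost its call under cyclic loess, with 16 added, with array weights, and without astrocyte replicate 3 (0.90), day 6 replicate 1 (0.98) or day 6 replicate 2 (0.95). Median centring called 5 of the 25. Etv5 (-0.01 ± 0.07) and Gabpa (0.09 ± 0.07) were held. Of 25 KLF and SP factors 2 rose, Klf8 (5.37, 5.40 and 5.56 to 7.59, 7.46 and 7.46, 2.06 ± 0.13) and Klf5 (1.08 ± 0.10), and 4 fell, led by Klf6 (-1.70 ± 0.26). Klf5 was near the threshold, and its call was not followed under the alternatives. Of 19 GATA, TFAP2 and grainyhead-type factors Tfap2c (1.51 ± 0.15) and Tfap2a (1.38 ± 0.09) rose and Tfcp2l1 fell, from 8.58, 8.64 and 8.81 to 6.43, 6.69 and 6.52 (-2.13 ± 0.09).

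Of 23 POU, TALE and ZIC factors 3 rose and 3 fell. Zic5 (1.32 ± 0.13, not called when probe sets were averaged) and Zic2 (1.08, not called under cyclic loess) rose, and the neural Pou3f3 (-1.54 ± 0.09) and Meis2 (-1.27 ± 0.07) fell, with Zic1 held (0.15 ± 0.11). Of 18 NF-kB pathway genes 3 were called (16.7%) and 9 held (50%), shares close to the 16.9% and 55.5% of all genes. Rel (-0.03 ± 0.17) was held, Bcl3 rose (1.56 ± 0.12), Traf1 fell (-1.31 ± 0.06) and Nfkbiz (-1.04) was near the threshold: it was not called with median centring, with 16 added, or without astrocyte replicate 1 (-0.99), astrocyte replicate 2 (-0.96) or day 6 replicate 2 (-0.95). RNA-binding proteins and splicing regulators exchanged members, with 8 of 40 higher and 8 lower. The splicing regulators Mbnl3 (5.62, 5.41 and 5.71 to 8.14, 8.38 and 8.21, 2.67 ± 0.14) and Esrp1, of epithelial cells (5.53, 5.72 and 5.79 to 8.36, 8.14 and 7.88, 2.45 ± 0.12), rose, while Celf2 (11.47, 11.66 and 11.07 to 7.94, 7.67 and 7.51, -3.70 ± 0.15), the mRNA destabilizer Zfp36 (-2.85 ± 0.27) and the neural stem cell protein Msi1 (-2.04 ± 0.13) fell. Mbnl1 was held at 0.02 ± 0.06.

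Reference genes used to normalize other assays differed in how well they held. Of 17 measured, 6 were held (35.3%), 3 rose and 1 fell (23.5% called). None of the 17 was dim throughout, and among all genes that were not dim 32.9% were held. Of all genes 16.9% were called. Ppia read 12.54, 12.53 and 12.51 in astrocytes and 12.48, 12.50 and 12.46 in day 6 cells (-0.05 ± 0.05), Eef1a1 differed by 0.23 ± 0.05, Ywhaz by -0.27 ± 0.05 and Actb by -0.28 ± 0.05. The difference of Actb is small but its arrays did not overlap (13.61, 13.55 and 13.54 and 13.32, 13.27 and 13.26, adjusted p = 0.000719 by limma). Tfrc, described among the metal genes, was 10.6-fold higher, B2m, of class I antigen presentation, fell by 1.92 log2 units from 12.10, 11.78 and 11.85 to 10.15, 9.84 and 10.00, and Hprt, of purine salvage, rose by 1.16 ± 0.10 (0.97 and not called under cyclic loess). The ribosomal Rps18 rose by 1.17 and also lost its call under cyclic loess. The brightest held genes outside the ribosome included Hspa8 (12.76, 12.68 and 12.70 and 12.77, 12.71 and 12.71, 0.01 ± 0.05) and Hsp90aa1 (-0.06 ± 0.06), both cytosolic chaperones, and Cfl1 (-0.18 ± 0.06), Tpt1 (0.08 ± 0.05) and Pabpc1 (0.32 ± 0.06), of actin, growth and mRNA binding.

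**Figure D5:**
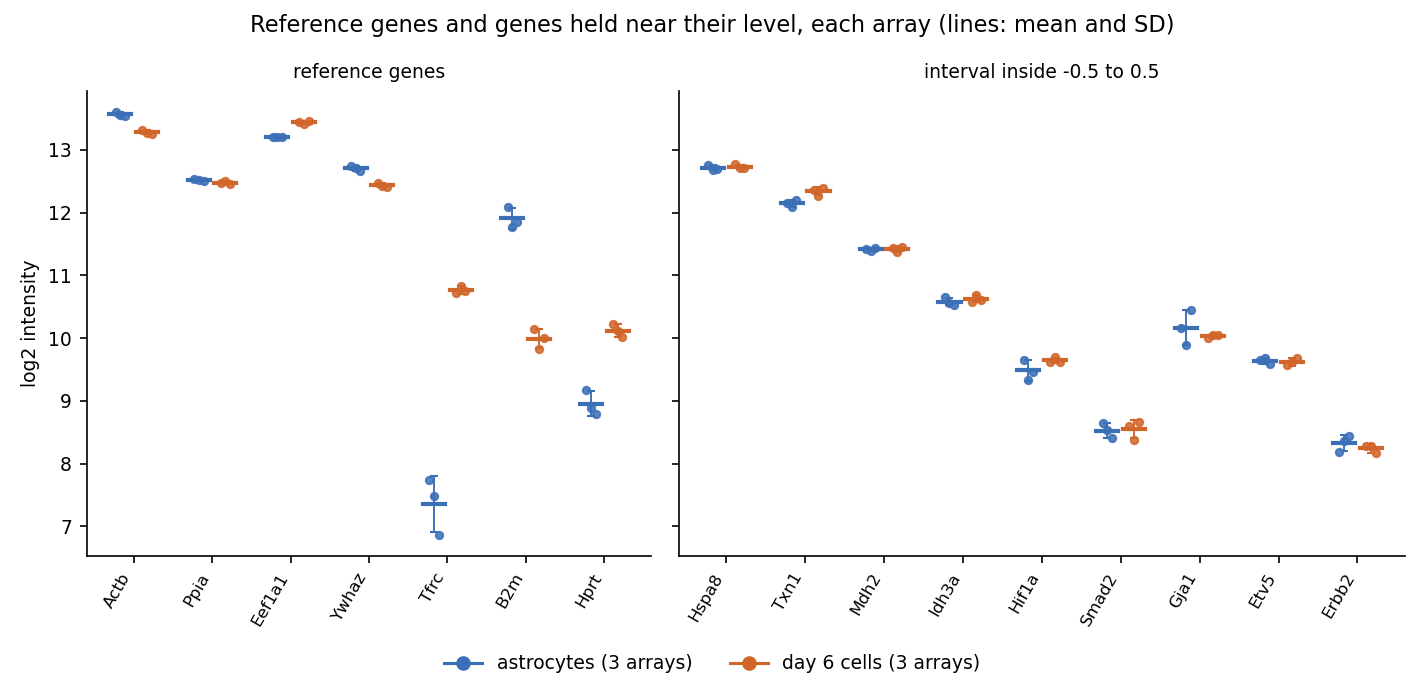
Log2 intensity (y axis) of 7 reference genes (left) and 9 genes held with a 95% interval inside -0.5 to 0.5 (right) on each of the 3 astrocyte (blue) and 3 day 6 arrays (orange), with the mean and SD. Tfrc and Hprt are higher and B2m lower on every day 6 array, while the arrays of Mdh2, Gja1, Smad2 and Erbb2 overlap.

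At the ends of the whole range, 4 genes rose by more than 5 log2 units: Foxd1, Slc7a3 and Nr0b1, described above, and the neurofilament Nefl (6.78, 6.35 and 6.69 to 11.75, 11.83 and 11.67, 5.14 ± 0.10), the only one of 15 neuron markers to rise. The ectonucleotidase Enpp3 (4.84 ± 0.13), the calcium-gated chloride channel Ano1 (6.09, 6.26 and 6.14 to 10.96, 10.68 and 10.82, 4.66 ± 0.17), the transglutaminase Tgm3 (4.51 ± 0.08) and the hormone precursor Trh (4.49 ± 0.17) came next. Irak3, which dampens Toll-like receptor signals, read 6.34, 6.20 and 6.43 in astrocytes and 10.62, 10.63 and 10.76 in day 6 cells (4.34 ± 0.08). The 12 largest falls on this scale were, in order, Ogn (-7.21 ± 0.12), the membrane glycoprotein Gpm6a (11.74, 11.65 and 11.79 to 5.33, 5.27 and 5.41, -6.39 ± 0.13), the smooth muscle calponin Cnn1 (-5.97 ± 0.16), the glial filament Gfap (-5.95 ± 0.12), Ecrg4 (-5.74 ± 0.11), the fatty acid binding protein Fabp7 (-5.69 ± 0.13), the neural proteoglycan Ncan (-5.68 ± 0.07), Cp, Islr (-5.62 ± 0.14), the insulin-like growth factor binding protein Igfbp5 (-5.58 ± 0.09), the organic anion carrier Slco1a4 (-5.51 ± 0.10) and the potassium channel Kcnj10 (-5.44 ± 0.09), through which astrocytes buffer potassium.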

How the data were processed

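RNA of 12 samples was amplified with the GeneChip WT PLUS kit and hybridized to Affymetrix Mouse Gene 1.0 ST arrays, per the labels and the design text. The authors deposited linear intensities per probe set. The submitters' processing notes name RMA, a method that corrects background and normalizes between arrays, and its version and settings are not given in the sources used here. No deposited intensity was below 20.2, and whether the authors added a constant is unstated, so log2 differences of dim genes may be understated. The design had foreseen log2 values, so log2 was taken first. The highest intensity was 15436 and array medians ran from 97.9 to 104.9. The number of arrays, 3 in each group, limits the precision.

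Of 28853 probe sets 21789 carry 1 gene symbol, 1621 several and 5443 none. Each of 19938 genes was represented by its brightest probe set among those with 1 symbol, and 999 genes had more than 1. One mean per group was fitted over all 12 arrays with limma 3.58.1 in R 4.3.3 (7 residual degrees of freedom, 10.9 with the prior), after the code had been tested on simulated data. Adjusted p-values are over all 19938 genes. Of 1379 entries in 49 gene lists, 8 of them cell type markers, 1252 matched a gene. The comparison and the lists were chosen with earlier results of these data known. The genes named were drawn from the 12 called genes at each end, up to 5 called members of largest absolute difference and up to 3 brightest held members of each list, and the 12 brightest held genes. Genes named outside this rule, to complete a count of 5 or fewer, for a promoter motif, or for their role, were chosen after their values were seen: Acsl4, Adam23, Aif1, Aldh18a1, Amt, Arnt, Arsa, Atic, Ccl7, Ctsd, Ctsl, Epha4, Gla, Gldc, Il6st, Itgam, Klf5, Lamp1, Lgr6, Mcoln1, Nr5a2, Oat, Panx1, Slc7a11, Tars and Yars. Atp6v0d1, Got1, Prps1, Slc1a4 and Slc7a7 were also named after the values were seen, as holders of the amino acid response element core. The alternatives tried are other ways to choose probe sets, normalize, offset, filter and fit, other thresholds, and leaving out each replicate.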

Additional observations from a re-analysis of the deposited data

How the results depend on the processing

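Of the 3360 genes called, between 3048 (16 added before log2) and 3360 kept the call under each alternative, and no gene was called in the opposite direction under any of them. Without the fold limit 9755 genes were called, 4748 higher and 5007 lower, and 844 list members in place of 411. The 11063 held genes became 16617 with all probe sets, 4255 with dim genes left out and 6433 with the bound at 0.3. Leaving out 1 replicate at a time gave 3327 to 3409 called genes, 1268 to 1414 higher, 1946 to 2094 lower, 10357 to 10875 held and 407 to 416 called list members. The median difference of all genes was 0.04, and 0.14 with median centring, which raised the share of higher among called genes from 40.1% to 46.5%. Cyclic loess lowered it to 35.2%. Of the 226 called genes that the naming rule chose, 17 lost the call under at least 1 alternative and none reversed. With 16 subtracted before log2, 3777 genes were called. Same-numbered replicates did not all deviate together (r of 0.41, -0.01 and 0.22), and unlike-numbered replicates had r of -0.37 to 0.16. The values of the replicates numbered 1 and 3 lay above all of the unlike-numbered ones. Whether the numbers mark pairs was therefore not settled, and they were not taken as pairing. With the replicate block and only the 6 arrays, 3364 genes were called, 1348 higher and 2016 lower, 11469 were held and 411 list members were called. A term for the arrays numbered 1, chosen after seeing the data, gave 3362. Dim genes have little signal over background, so a held call there carries little information.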

Other observations

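These examples were chosen after their values were seen. Some that were high in day 6 cells were lower in the astrocytes and in the other 3 groups, which hold 2 arrays each and were not tested here. Levels are log2 intensity, as means. The transglutaminase Tgm3 was at 6.10 in astrocytes, 10.61 in day 6 cells, 6.07 in neural stem cells, and 6.51 and 6.35 in iPSCs from astrocytes and fibroblasts. The chloride channel Ano1 was at 6.16 in astrocytes, 10.82 in day 6 cells, 7.98 in neural stem cells, and 6.22 and 6.26 in iPSCs from astrocytes and fibroblasts. The ephrin receptor Epha7 was at 6.11 in astrocytes, 10.03 in day 6 cells, 7.89 in neural stem cells, and 7.20 and 7.18 in iPSCs from astrocytes and fibroblasts. The melatonin receptor relative Gpr50 was at 5.57 in astrocytes, 9.80 in day 6 cells, 6.27 in neural stem cells, and 5.89 and 5.68 in iPSCs from astrocytes and fibroblasts. In contrast the amino acid carrier Slc7a3 was at 5.95 in astrocytes, 11.06 in day 6 cells, 7.16 in neural stem cells, and 10.89 and 10.59 in iPSCs from astrocytes and fibroblasts, and the hormone precursor Trh at 5.82 in astrocytes, 10.31 in day 6 cells, 5.82 in neural stem cells, and 11.27 and 11.17 in iPSCs from astrocytes and fibroblasts, both high in the iPSCs as well.

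Some genes that had fallen by day 6 were high in iPSCs. The factor Tfcp2l1 was at 8.68 in astrocytes, 6.55 in day 6 cells, 5.87 in neural stem cells, and 8.89 and 8.90 in iPSCs from astrocytes and fibroblasts. Glutathione peroxidase 3 (Gpx3) was at 9.42 in astrocytes, 6.16 in day 6 cells, 7.96 in neural stem cells, and 8.91 and 9.42 in iPSCs from astrocytes and fibroblasts, Cpt1a at 10.23 in astrocytes, 7.39 in day 6 cells, 9.26 in neural stem cells, and 9.07 and 9.15 in iPSCs from astrocytes and fibroblasts and Bmp4 at 10.11 in astrocytes, 6.73 in day 6 cells, 6.04 in neural stem cells, and 8.74 and 9.96 in iPSCs from astrocytes and fibroblasts. The zinc carrier Slc39a12 was at 9.21 in astrocytes, 5.36 in day 6 cells, 5.29 in neural stem cells, and 5.22 and 5.29 in iPSCs from astrocytes and fibroblasts, low in every group but the astrocytes.

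Over all promoters matched, the ETS sequence CCGGAAG, searched on both strands, stood in 12.5%, in 22.5% of those of genes called higher and in 8.34% of those called lower. Held genes that were not dim had it in 18.7%, and genes dim on all 6 arrays in 3.91%, so the share over all promoters is lowered by dim genes. The E2F sequence TTTNGCGC stood in 1.84%, 5.34% and 1.71%, and in 2.28% of the held genes that were not dim and 0.706% of the dim genes. The median number of CpG dinucleotides was 15 over all promoters, 22 for genes called higher and 19 for those called lower. It was 20 for held genes that were not dim and 4 for dim genes, and base composition was not matched between these groups.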
